A study of Mus musculus with 14 samples.

Results

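The genes described here are 8 mouse genes of phosphoinositide and protein kinase C (PKC) signalling: Pik3cd, Pik3cg, Pik3r5, Inpp5d, Plcg2, Itpkb, Prkcd and Prkcb. They are 8 of the 21887 protein-coding genes that could be examined. Acetylation of lysine 27 on histone H3 (H3K27ac), which marks promoters and enhancers in use, was followed at them in CD11b+ tumour-associated macrophages. Itpkb, Inpp5d and Prkcd were chosen by the measured number of H3K27ac peak summits over them in these same libraries, so their high counts are given as a description only.

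These genes encode enzymes that write, erase and read lipid signals at the inner face of the plasma membrane. Class I phosphoinositide 3-kinases (PI3K) phosphorylate the membrane lipid phosphatidylinositol bisphosphate to the trisphosphate, which recruits kinases such as Akt, and the phosphatase SHIP1 removes a phosphate from it again. Phospholipase C cleaves the same bisphosphate into inositol trisphosphate, which releases calcium from internal stores, and diacylglycerol, which activates PKC. In macrophages these enzymes act below Fc receptors, chemokine receptors and other immune receptors, and several are found mainly in blood cells.

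H3K27ac was mapped by CUT&Tag, where a transposase brought to the mark by an antibody cuts and tags the DNA next to it. The cells were sorted on CD11b, a surface protein of myeloid cells, from brain tumours of NSG mice, which lack mature lymphocytes. All mice carried orthotopic T387 glioblastoma (GBM) xenografts, that is, tumours grown in the brain. There were 4 H3K27ac libraries from mice given pracinostat, an inhibitor of histone deacetylases, and 3 from mice given DMSO vehicle, and the same numbers with non-specific IgG, which shows the background of the assay. Pracinostat was given by oral gavage at 30 mg/kg, 4 times a week for 3 weeks, starting 7 days after implantation. The vehicle mice received the solvent of DMSO, PEG300, Tween-80 and PBS without drug. The labels disagree on the dose, because the account of how the drug was made up gives 3 mg/kg. The sources used here do not give the age and sex of the mice, or which animal each library came from. CD11b is also carried by neutrophils and microglia, and in sorted bulk cells a different share of a cell type and a different level of the mark per cell cannot be told apart.

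The pracinostat H3K27ac lists held 229609 to 289017 summits and the DMSO lists 208401, 53503 and 291042, with means of 250400 ± 26630.5 (SD, n = 4) and 184315 ± 120587 (SD, n = 3). The means did not differ in an exact two-sided permutation test (p = 0.343, where the 35 possible splits allow no p below 0.0286). DMSO replicate 2 stood apart: 34928 of its 53503 summits shared its lowest score, and 11425 of the 30000 summits used from it were drawn at random among these ties. Marker genes of macrophages ranked high, with mean gene-end percentiles of 68.3 to 80.9 in pracinostat libraries and 61.1 to 66.5 in DMSO libraries for 10 of 10 genes. Microglial markers lay at 57.4 to 70.7 in pracinostat libraries and 49.2 to 55.1 in DMSO libraries for 8 of 8 genes. Neutrophil markers lay at 19.4 to 29.5 in pracinostat libraries and 32.7 to 47.6 in DMSO libraries for 8 of 10 genes. Of these markers, S100a9, Ly6g and Retnlg had 0 among the 30000 highest summits of every library. The others did have summits, and the neutrophil list as a whole held 9 to 13 in pracinostat libraries and 9 to 16 in DMSO libraries. The percentile ranges of these 3 lists did not overlap between the treatments, and their part in the results on the 8 genes was not tested. Those of the lymphocyte, oligodendrocyte, astrocyte and neuron, and endothelial marker lists overlapped between the treatments. Of the lymphocyte markers, Cd3e, Cd8a, Ncr1 and Bcl11b also had 0 among the 30000 highest of every library.

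The promoters of 5 of the 8 genes are printed because H3K27ac summits lay within 1 kb of their starts in 5 or more of the 7 lists, and because they differ in their sequence. Each runs from 250 bases before to 50 after a RefSeq transcription start in the mouse assembly GRCm38.p6 (mm10), read 5′ to 3′ on the strand of the gene. Capitals mark GAGGAA or its reverse complement TTCCTC, the core letters bound by the myeloid factor PU.1 and its relatives, and the GC box GGGCGG or its reverse complement CCGCCC. No marked match overlapped another. Promoters of Plcg2 and Pik3cd, and another each of Pik3cg and Prkcd, also had summits within 1 kb in 5 or more lists and are not printed. The unprinted promoter of Prkcd holds 0 GC boxes and 0 matches to the PU.1-type letters. Within the printed bases themselves, summits lay in 4 of the 7 lists at Inpp5d, 2 at Pik3cg, 0 at Itpkb, 5 at Prkcd and 3 at Pik3r5. Inpp5d (chr1:87620062-87620361, plus strand), Pik3cg (chr12:32208610-32208909, minus strand) and Itpkb (chr1:180330226-180330525, plus strand) hold the PU.1-type letters, and Prkcd (chr14:30626159-30626458, minus strand) and Pik3r5 (chr11:68431875-68432174, plus strand) hold GC boxes.
Inpp5d: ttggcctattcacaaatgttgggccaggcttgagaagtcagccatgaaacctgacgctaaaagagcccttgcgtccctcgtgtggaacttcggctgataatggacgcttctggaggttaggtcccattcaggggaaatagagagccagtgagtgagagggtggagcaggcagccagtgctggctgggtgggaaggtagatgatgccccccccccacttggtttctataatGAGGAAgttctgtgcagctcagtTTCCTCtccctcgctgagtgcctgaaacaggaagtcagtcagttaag
Pik3cg: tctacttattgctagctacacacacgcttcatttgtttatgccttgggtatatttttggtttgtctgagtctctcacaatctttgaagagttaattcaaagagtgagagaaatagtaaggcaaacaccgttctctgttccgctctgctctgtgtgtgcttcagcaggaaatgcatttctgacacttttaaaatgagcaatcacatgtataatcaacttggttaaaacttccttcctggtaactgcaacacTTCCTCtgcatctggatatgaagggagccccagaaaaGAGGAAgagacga
Itpkb: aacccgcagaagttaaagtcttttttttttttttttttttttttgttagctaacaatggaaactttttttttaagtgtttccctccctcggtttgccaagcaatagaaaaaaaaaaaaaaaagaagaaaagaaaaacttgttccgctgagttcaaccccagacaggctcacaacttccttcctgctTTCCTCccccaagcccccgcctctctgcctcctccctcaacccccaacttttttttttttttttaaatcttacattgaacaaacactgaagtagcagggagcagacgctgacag
Prkcd: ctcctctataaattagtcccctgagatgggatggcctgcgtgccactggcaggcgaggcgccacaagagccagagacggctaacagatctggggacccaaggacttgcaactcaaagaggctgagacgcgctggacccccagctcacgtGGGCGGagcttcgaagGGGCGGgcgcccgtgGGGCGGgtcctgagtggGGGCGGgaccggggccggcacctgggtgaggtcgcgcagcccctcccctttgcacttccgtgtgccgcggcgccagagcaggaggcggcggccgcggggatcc
Pik3r5: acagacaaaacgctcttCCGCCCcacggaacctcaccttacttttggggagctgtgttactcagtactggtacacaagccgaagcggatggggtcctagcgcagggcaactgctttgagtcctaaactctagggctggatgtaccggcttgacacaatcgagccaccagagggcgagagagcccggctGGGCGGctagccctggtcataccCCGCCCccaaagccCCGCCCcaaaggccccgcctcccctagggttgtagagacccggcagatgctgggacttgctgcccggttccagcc

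RefSeq listed 12 promoters for the 8 genes, all of which were matched. The PU.1-type letters stood in 4 of the 12 promoters, which belong to 3 genes, and in 27.4% of 21263 promoters of protein-coding genes. Inpp5d and Pik3cg had 2 matches each and Itpkb had 1. The 2 promoters of Pik3cg overlap and share the same matches, so these letters count for both of them among the 4. The GC box stood in 6 of the 12 promoters, from 5 genes, and in 46.2% of all promoters, with 4 matches each in the Prkcd and Pik3r5 promoters printed. The shorter ETS core GGAA, which is part of the PU.1-type letters, was in 11 of the 12 promoters and 95.7% of all. The AP-1 letters TGANTCA were in 0 of the 12 and 6.99% of all, and the CRE letters TGACGTCA in 0 of the 12 and 2.23% of all. The C/EBP letters TTGCNNAA were in 1 of the 12 and 10.2% of all, the E-box CACGTG in 2 of the 12 and 7.84% of all, and the TATA box TATAAA in 1 of the 12 and 12.6% of all. A match is a run of letters on either strand and not a measured binding site.

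A first measure was the number of summits over each gene and 10 kb on both sides among the 30000 highest-scoring summits of each library, which puts lists of unequal length on one footing. The 8 genes had a median of 19 summits per library, beside 0.571 for all 21887 genes. Per 100 kb of window the order was Prkcd with 61.5 ± 8.75 (SD over the 7 libraries), Pik3r5 with 27.3 ± 4.803, Itpkb with 26.1 ± 4.41, Inpp5d with 22.0 ± 4.27, Pik3cd with 13.8 ± 2.66, Pik3cg with 10.3 ± 5.09, Plcg2 with 9.29 ± 2.26 and Prkcb with 1.64 ± 0.974. Prkcd stood above the other 7 genes without overlap in any library, since its lowest library had 43.1 per 100 kb and the highest library of Pik3r5 had 34.996. Pik3r5, Itpkb and Inpp5d overlapped one another, as did Pik3cd, Pik3cg and Plcg2, and the lowest libraries of Inpp5d overlapped the highest of Pik3cd and Pik3cg. Prkcb lay below the rest without overlap, with 3.28 in its highest library and 5.43 in the lowest of Pik3cg. Over all genes the median was 0.963 per 100 kb, and Prkcd ranked 15 both by count and by count per length. Among the 3 genes chosen for their counts Inpp5d was the lowest by count, with a mean of 26.4 summits over the 7 libraries, and Pik3r5, which was not chosen for its count, came next with 23.4.

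**Figure D1:**
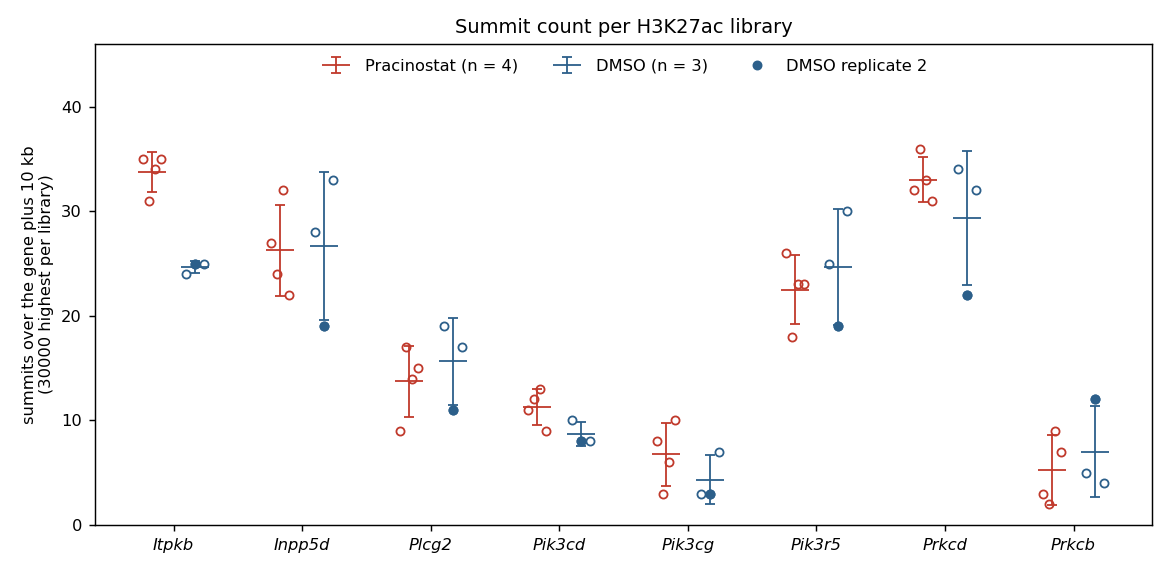
Number of H3K27ac summits over each gene plus 10 kb on both sides among the 30000 highest summits of each library (y axis), with pracinostat libraries in red, DMSO libraries in blue and DMSO replicate 2 filled; horizontal marks and bars are means ± SD. The 4 pracinostat values of Itpkb, 31 to 35, sit above the 3 DMSO values, 24 and 25, and the groups of the other 7 genes overlap.

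A second measure was the gene-end rank: the highest summit score within 1 kb of either end of a gene, taken from the full list and turned into a percentile within the library, where 100 is the highest. It covered the 13494 genes marked in this way in 3 or more of the 7 libraries, among which all 8 genes were found. Differences are in normal-score units, of which 1 equals 1 SD of all ranked genes. Both measures were compared between treatments with limma, with Benjamini-Hochberg adjustment over all genes tested. At an adjusted p under 0.05, limma called 0 of the 8 genes and 0 of 13494 by gene-end rank (0%), and 0 of the 8 and 0 of 9678 by summit count (0%). At an unadjusted p under 0.05, 6.17% of genes passed by rank and 0 of the 8, while 5.51% passed by count and 1 of the 8, Itpkb, in the direction in which 2.96% of genes passed. Neither measure can show a shift of acetylation that is the same at every site, because each compares sites within 1 library.

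Pik3cd encodes p110δ, the catalytic subunit of the PI3K of leukocytes that is coupled to immune receptors. It lies at chr4:149649168-149702566 on the minus strand and spans 53.4 kb. Pracinostat libraries had 11, 12, 13 and 9 summits over it and DMSO libraries had 10, 8 and 8. The means were 11.25 ± 1.71 (SD, n = 4) and 8.67 ± 1.15 (SD, n = 3), and the groups overlapped. The log2 difference was 0.34 ± 0.27 (SE), with an adjusted p of 0.929 in limma. Its gene-end percentiles were 83.8, 91.6, 76.7 and 80.8 in pracinostat libraries and 61.2, 47.3 and 77.0 in DMSO libraries. The value of 47.3 in DMSO replicate 2 is the tie of the genes at that library's lowest score. The overlap of the groups was small, with the highest DMSO value just above the lowest pracinostat value. The difference of 0.673 ± 0.386 (SE) was the largest among the 8 genes and gave an unadjusted p of 0.0881 and an adjusted p of 0.848 in limma. Summits lay at its start at chr4:149698708 in all 7 lists, and 25 of its 71 summits lay before the 5′ end of the gene, 11 of them within 1 kb of it and 14 (19.7% of the 71) further away. The next gene, Clstn1, is 269 bp away, and 0 of the 71 summits lay inside it.

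Pik3cg encodes p110γ, the catalytic subunit that answers to G protein-coupled receptors such as those for chemokines. It lies at chr12:32173397-32208677 on the minus strand. Pracinostat libraries had 8, 3, 6 and 10 summits and DMSO libraries had 3, 3 and 7. The groups overlapped, with means of 6.75 ± 2.99 and 4.33 ± 2.31 and a log2 difference of 0.53 ± 0.35 (adjusted p = 0.920, limma). Its gene-end percentiles spread widely within both groups, with 82.1, 43.4, 75.1 and 64.4 in pracinostat libraries and 41.5, 62.6 and 86.2 in DMSO libraries. The difference was 0.0517 ± 0.388 (adjusted p = 0.997, limma). The promoter printed above carried a summit within 1 kb in 6 of the 7 lists.

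Pik3r5 encodes p101, the adaptor that ties p110γ to the G protein βγ subunits. It lies at chr11:68432125-68497849 on the plus strand. Its counts were 26, 18, 23 and 23 in pracinostat libraries and 25, 19 and 30 in DMSO libraries. The means of 22.5 ± 3.32 and 24.7 ± 5.51 lay close together, and the log2 difference was -0.12 ± 0.23 (adjusted p = 0.965, limma). Its gene-end percentiles were 74.9, 78.3, 67.8 and 51.2 in pracinostat libraries and 71.8, 84.6 and 92.2 in DMSO libraries. The groups overlapped, and the difference of -0.518 ± 0.389 was the most negative of the 8 (adjusted p = 0.877, limma). Pik3r6, which encodes the other adaptor of p110γ, lies 5170 bp away, and 12 of the 164 summits counted for Pik3r5 (7.32%) lay inside it. The adaptor gene was thus marked more densely than the gene of its catalytic partner, with 27.3 and 10.3 summits per 100 kb and no overlap of the 7 libraries.

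Inpp5d encodes SHIP1, the blood-cell phosphatase that takes the 5-phosphate from the lipid made by PI3K. It lies at chr1:87620312-87720510 on the plus strand and spans 100.2 kb. Pracinostat libraries had 27, 24, 32 and 22 summits and DMSO libraries had 28, 19 and 33. The groups covered almost the same range, with means of 26.25 ± 4.35 and 26.7 ± 7.09 and a log2 difference of -0.00 ± 0.23 (adjusted p = 1.00, limma). Its gene-end percentiles were 97.4, 77.6, 86.4 and 69.2 in pracinostat libraries and 92.0, 19.0 and 95.5 in DMSO libraries. The value of 19.0 belongs to DMSO replicate 2, which had no summit at either gene end. The difference was 0.335 ± 0.460 (adjusted p = 0.948, limma), and without DMSO replicate 2 it was -0.475. Within the gene, 96.6% of the summits lay in its 5′ part before the midpoint. Without DMSO replicate 2 none lay beyond 61.5 kb from the start, and 8 of the 19 summits of that library were at its lowest score.

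Plcg2 encodes phospholipase Cγ2, the form of the enzyme that acts below immune receptors in myeloid cells and B cells. It lies at chr8:117498275-117635142 on the plus strand. Counts were 9, 17, 14 and 15 in pracinostat libraries and 19, 11 and 17 in DMSO libraries. The groups overlapped, with means of 13.75 ± 3.40 and 15.7 ± 4.16 and a log2 difference of -0.18 ± 0.27 (adjusted p = 0.948, limma). Gene-end percentiles were 45.02, 61.3, 78.3 and 88.4 in pracinostat libraries and 52.6, 84.6 and 65.2 in DMSO libraries. The difference was 0.0422 ± 0.391 (adjusted p = 0.997, limma). As at Inpp5d, 98.0% of the summits inside the gene lay before its midpoint, and without DMSO replicate 2 the farthest lay 51.0 kb from the start of a gene of 136.9 kb.

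Itpkb encodes a kinase that adds a phosphate to inositol trisphosphate and so turns the calcium messenger into inositol tetrakisphosphate. It lies at chr1:180330390-180424802 on the plus strand and spans 94.4 kb. Pracinostat libraries had 35, 31, 34 and 35 summits over it, and DMSO libraries had 24, 25 and 25. Every pracinostat library was above every DMSO library, which among the 8 genes held for this one alone. Such a separation in this direction was found for 1.41% of the 9678 genes tested, and 1 gene among 8 is too few to be set against that share. The means were 33.75 ± 1.89 (SD, n = 4) and 24.7 ± 0.577 (SD, n = 3), a log2 difference of 0.44 ± 0.21 (SE), or a 1.35-fold ratio of count plus 1. The unadjusted p was 0.0464 and the adjusted p 0.897 in limma, so the difference was not called. In lists of 15000 summits the counts were 15, 17, 13 and 13 in pracinostat libraries and 8, 16 and 12 in DMSO libraries, and the groups overlapped. In lists of 50000 they were 60, 53, 48 and 52 in pracinostat libraries and 39, 42 and 39 in DMSO libraries, and the groups did not overlap. The gene ends showed no such separation. Gene-end percentiles were 51.4, 64.9, 57.2 and 69.2 in pracinostat libraries and 59.9, 72.3 and 39.5 in DMSO libraries, with a difference of 0.0837 ± 0.363 (adjusted p = 0.981, limma).

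The summits of Itpkb were spread along the gene rather than gathered at its start. Of its 209 summits in the 7 lists, 3.83% lay within 1 kb of the start and 90.9% further inside the gene. Of the 198 summits inside the gene, those near the start included, 38.4% lay before the midpoint. Among 1515 genes with at least 20 summits inside, the median share before the midpoint was 77.5% and the quartiles were 51.0% and 92.4%. In the part of the gene after the midpoint there were 19, 20, 19 and 22 summits in pracinostat libraries and 9, 16 and 17 in DMSO libraries. In the part before it there were 13, 10, 13 and 11 in pracinostat libraries and 12, 9 and 8 in DMSO libraries. The groups did not overlap after the midpoint and overlapped before it. This split was made after the summits had been seen and was not tested. The neighbouring gene Stum held 0 of the 209 summits.

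Prkcd encodes PKCδ, a PKC that answers to diacylglycerol and does not need calcium. It lies at chr14:30595353-30626414 on the minus strand and at 31.1 kb is the shortest of the 8 genes. Counts were 32, 36, 33 and 31 in pracinostat libraries and 34, 22 and 32 in DMSO libraries. The means of 33.0 ± 2.16 and 29.3 ± 6.43 differed by less than the spread of the DMSO libraries, with DMSO replicate 2 the lowest (log2 difference 0.19 ± 0.22, adjusted p = 0.944, limma). Gene-end percentiles were 87.7, 84.5, 95.9 and 66.9 in pracinostat libraries and 95.9, 72.3 and 75.6 in DMSO libraries, with a difference of 0.0801 ± 0.418 (adjusted p = 0.988, limma). Both ends of the gene carried a summit in all 7 lists, the 3′ end of no other of the 8 genes did so, and Pik3r5 came next with 4 lists. Of its 220 summits, 15.5% lay before the gene, 52.3% inside and 15.9% after it, besides 16.4% within 1 kb of a start.

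Prkcb encodes PKCβ, a PKC that needs both calcium and diacylglycerol. It lies at chr7:122289104-122634402 on the plus strand and at 345.3 kb is the longest of the 8 genes. Counts were 3, 2, 9 and 7 in pracinostat libraries and 5, 12 and 4 in DMSO libraries. The groups overlapped, with means of 5.25 ± 3.30 and 7.00 ± 4.36 and a log2 difference of -0.39 ± 0.39 (adjusted p = 0.942, limma). The 12 summits of DMSO replicate 2 were the most of any library, and 6 of them were at its lowest score. Gene-end percentiles were 57.5, 48.3, 49.6 and 19.6 in pracinostat libraries and 52.6, 62.6 and 42.3 in DMSO libraries, with a difference of -0.243 ± 0.354 (adjusted p = 0.951, limma).

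**Figure D2:**
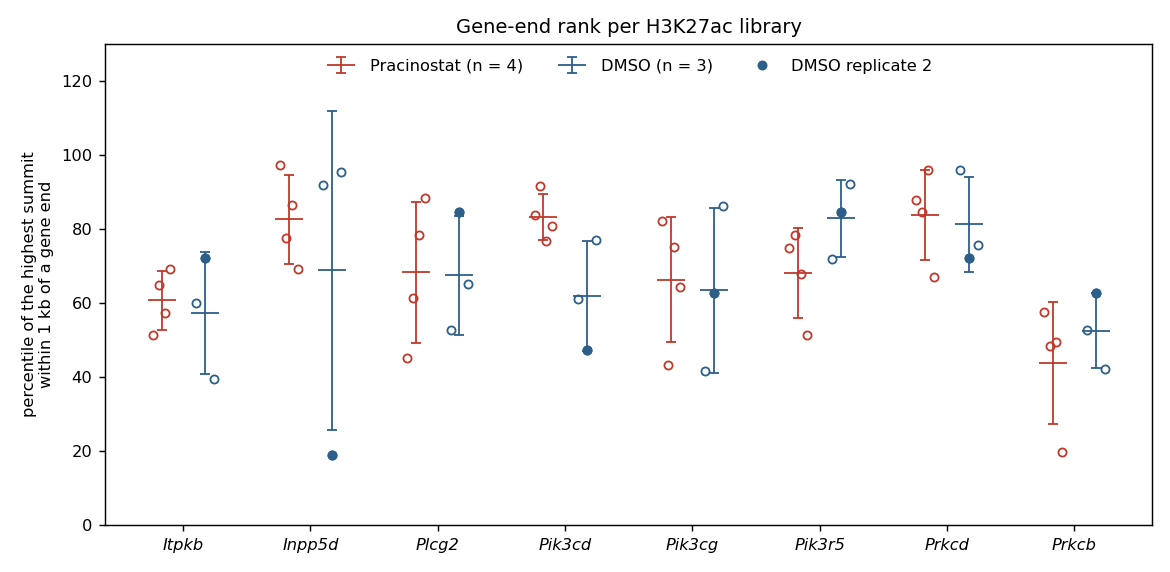
Percentile of the highest H3K27ac summit within 1 kb of a gene end (y axis, 100 is the highest) for each of the 8 genes, with pracinostat libraries in red, DMSO libraries in blue and DMSO replicate 2 filled; horizontal marks and bars are means ± SD. The groups overlap for every gene, and the DMSO bar of Inpp5d is long because DMSO replicate 2 had no summit there and sits at 19.0.

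The 8 windows together held 151, 143, 164 and 152 summits in pracinostat libraries and 148, 119 and 156 in DMSO libraries. The groups overlapped, with means of 152.5 ± 8.66 (SD, n = 4) and 141 ± 19.5 (SD, n = 3) and DMSO replicate 2 the lowest. Across the 8 genes, 6 had a positive difference in gene-end rank and 4 in summit count. Over all genes tested the shares were 48.6% and 54.3%. The median difference was 0.0659 for the 8 genes and -0.0146 for all ranked genes by rank, and 0.09 for the 8 genes and 0.04 for all genes tested by count on the log2 scale. No gene of the 8 separated the treatments by gene-end rank, where 2.88% of all ranked genes were higher in every pracinostat library and 3.79% lower in every one.

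The genes differed in where their summits lay. At Plcg2, Inpp5d, Pik3cg and Prkcb at least 95.1% of the summits inside the gene lay before the midpoint, a share of 90% or more being found at 31.5% of the 1515 genes. At Prkcd the share was 84.1% and at Pik3cd 87.0%, while Pik3r5 with 51.1% and Itpkb with 38.4% were marked along their length. Summits within 1 kb of the 5′ end stood in all 7 lists at Pik3cd, Pik3r5 and Prkcd, in 6 at Inpp5d, Plcg2 and Pik3cg, in 5 at Itpkb and in 4 at Prkcb.

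**Figure D3:**
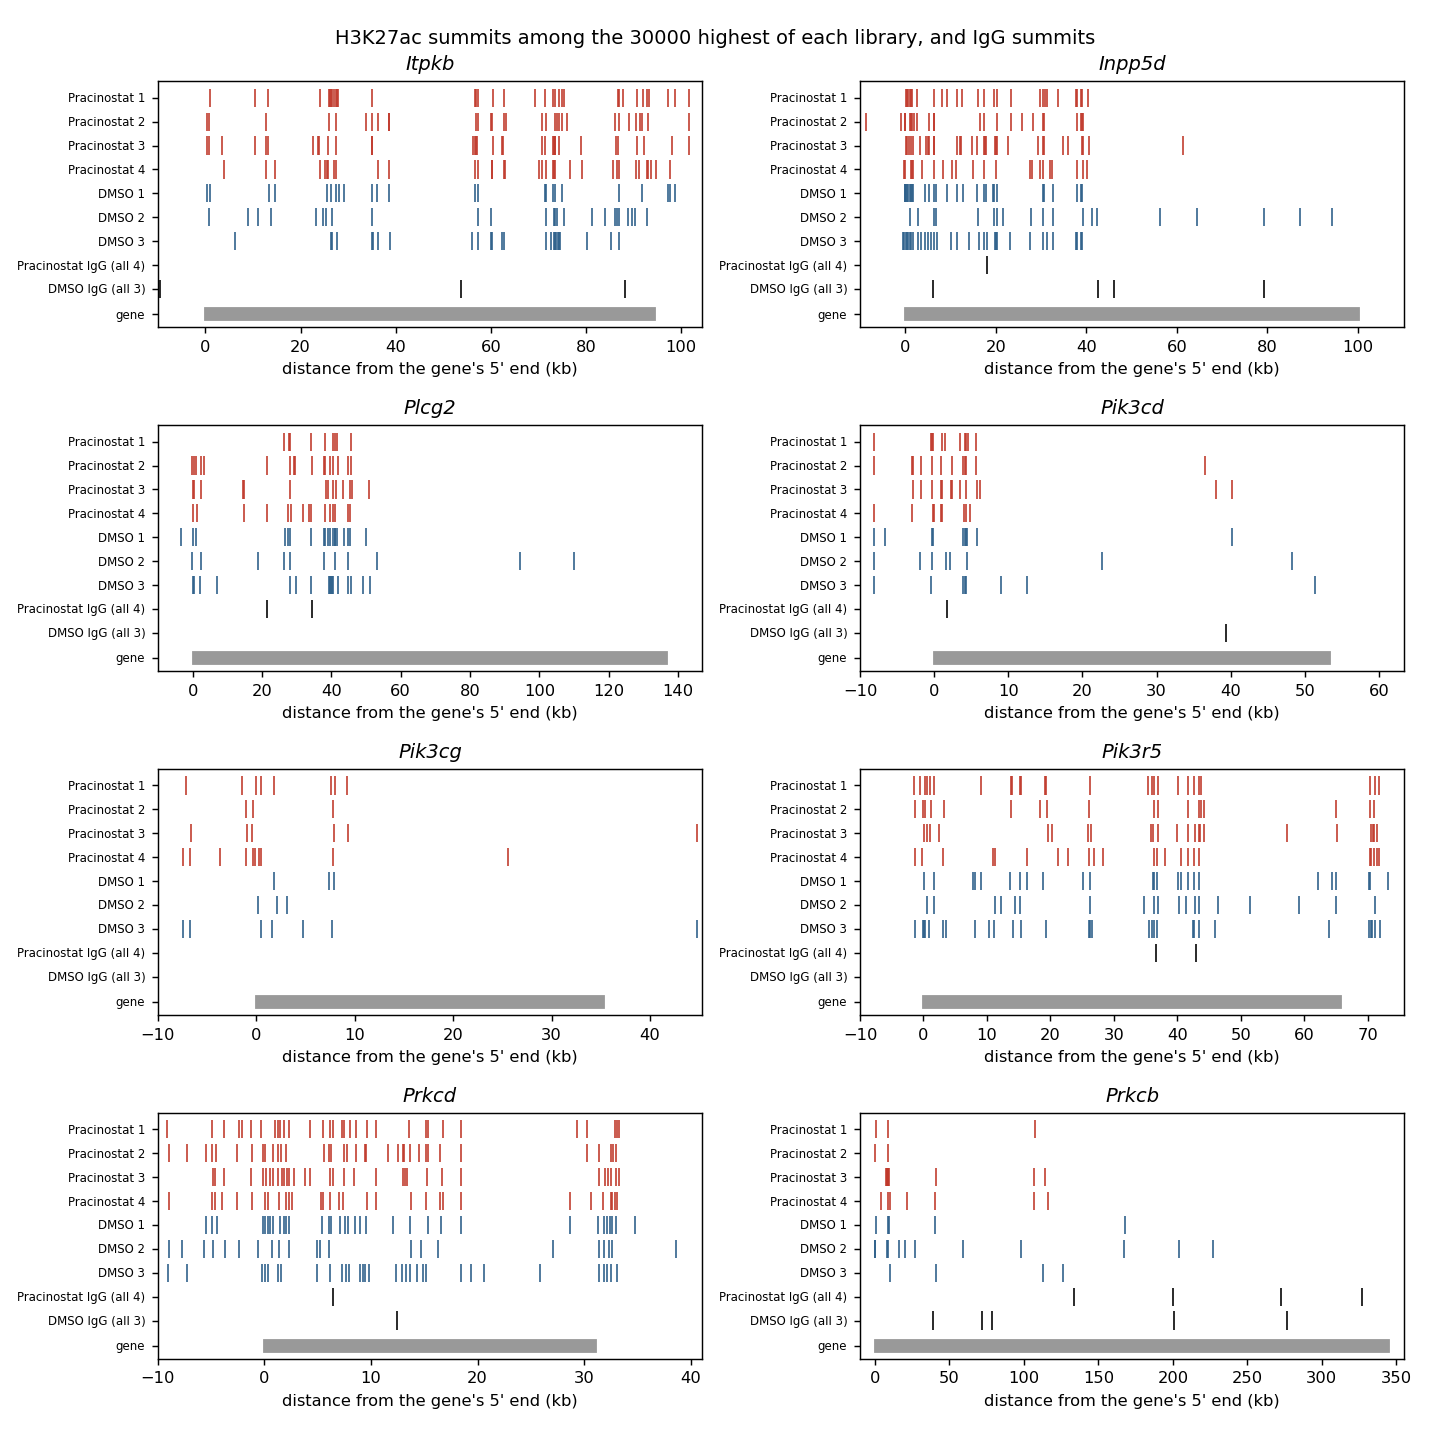
Position of each H3K27ac summit among the 30000 highest of each library, as distance in kb from the 5′ end of the gene (x axis), with 1 row per library, pracinostat in red above DMSO in blue, then the IgG summits of each treatment in black and the gene as a grey bar. The marks of Inpp5d and Plcg2 stop well before the end of the gene except in DMSO replicate 2, and those of Itpkb run along the whole gene.

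With IgG in place of the H3K27ac antibody, the gene ends of the 8 genes held 0 summits in each of the 7 lists. Over all genes the share with such a summit was 0.891 ± 0.427% in pracinostat libraries (SD, n = 4) and 1.85 ± 0.739% in DMSO libraries (SD, n = 3). At shares this low, 0 among 8 genes does not set them apart. Over the genes plus 10 kb the IgG lists held 1, 4, 2 and 4 summits in pracinostat libraries and 9, 3 and 2 in DMSO libraries. In full length, the IgG lists held 2572, 10186, 6077 and 2194 summits in pracinostat libraries and 18517, 9244 and 10191 in DMSO libraries. The IgG numbers and shares given here were not adjusted for these lengths, so they do not compare the treatments. When each H3K27ac list was cut to the length of the IgG list of the same treatment and number, it held 17, 53, 31 and 13 summits in pracinostat libraries and 82, 37 and 56 in DMSO libraries. Because the cuts differ, these numbers are to be read within a pair only. The H3K27ac number was the higher in all 7 pairs. Prkcb had the most IgG summits, 9 over the 7 lists, in the longest window, and Pik3cg had 0. Since the genes were chosen in part for their summits, this contrast was not tested. Counted as genes, an IgG summit lay over 1, 2, 2 and 4 of the 8 in pracinostat libraries and 5, 3 and 2 in DMSO libraries. Among all 21887 genes an IgG summit lay over 11.6 ± 6.67% in pracinostat libraries (SD, n = 4) and 21.9 ± 6.47% in DMSO libraries (SD, n = 3).

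Single elements were followed as consensus regions, made by merging the summits of the 7 lists of 30000 after extending each by 250 bp. The 8 windows held 215 of the 60340 regions, from 43 at Itpkb to 11 at Pik3cg. Of these 215, 25 were in all 7 lists (11.6%, beside 8.39% of all regions) and 94 in 1 list (43.7%, beside 54.0%). The 25 shared regions comprised 5 each at Itpkb, Inpp5d, Pik3r5 and Prkcd, 2 each at Plcg2 and Pik3cd, 1 at Prkcb and 0 at Pik3cg. The longest covered the start of Prkcd (chr14:30623427-30627294, 3868 bp), followed by a region inside Itpkb (chr1:180354835-180358623, 3789 bp) and the start of Inpp5d (chr1:87619217-87622570, 3354 bp). High ranks of shared regions follow from how they were picked, and the 2 given here are among the highest. A region 6.6 kb into Inpp5d (chr1:87626308-87627574) had a mean percentile of 97.9 ± 2.22 in pracinostat libraries and 98.8 ± 1.12 in DMSO libraries, and one just past the 3′ end of Prkcd (chr14:30592889-30595323) had 98.0 ± 1.00 in pracinostat libraries and 95.4 ± 4.26 in DMSO libraries. Of the 7 IgG lists, 1 had a summit in this Inpp5d region and 0 in this Prkcd region.

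Of the 215 regions, 198 had a summit in at least 3 full lists and were ranked. limma called 0 of them, beside 2 of 48326 regions in all (0.00414%, with 0.00207% higher and 0.00207% lower), and the smallest adjusted p among the 198 was 0.895. At an unadjusted p under 0.05, 7 regions were higher and 2 lower in pracinostat libraries (9 in all), where 2.59% of all ranked regions passed as higher and 2.55% as lower (5.13% in all). The treatments did not overlap at 7 regions that were higher and 3 that were lower in pracinostat libraries (10 in all), beside 3.34% and 3.05% of all ranked regions (6.39% in all). These counts are near the background shares. In all 4 pracinostat lists and no DMSO list there were 2 regions, beside 0.260% of all 60340, and in all 3 DMSO lists and no pracinostat list there were 0, beside 0.167%. The regions named next were chosen after their values had been seen.

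A region 1.24 kb before the start of Prkcd (chr14:30627346-30627964) had a summit in all 4 pracinostat lists and no DMSO list. In the full lists its percentiles were 89.0, 86.2, 74.5 and 64.2 in pracinostat libraries and 43.9, 25.1 and 47.9 in DMSO libraries, where 25.1 in DMSO replicate 2 stands for no summit. The groups did not overlap, and the difference was 1.13 ± 0.486 (adjusted p = 0.895, limma). A second region before Prkcd, 4.7 kb from the start (chr14:30630651-30631581), had 93.6, 89.2, 99.8 and 96.5 in pracinostat libraries and 89.7, 77.7 and 56.6 in DMSO libraries, a small overlap (difference 1.14 ± 0.423, adjusted p = 0.895, limma). At the other region of this kind, before Pik3cg (chr12:32209397-32210352), the percentiles were 66.2, 83.1, 76.7 and 59.8 in pracinostat libraries and 58.4, 60.8 and 27.5 in DMSO libraries. The DMSO summits there were not among the 30000 used. That of DMSO replicate 2 was at its library's lowest score, where ties were drawn at random, so its absence came from the draw. The groups overlapped (difference 0.625 ± 0.487, adjusted p = 0.895, limma). Far inside Prkcb, 107 kb from the start (chr7:122395963-122396515), the percentiles were 91.2, 59.2, 84.0 and 64.2 in pracinostat libraries and 27.7, 25.1 and 10.2 in DMSO libraries, where DMSO replicates 2 and 3 had no summit. Here the groups did not overlap, with a difference of 1.58 ± 0.498 and an adjusted p of 0.895 in limma. Among the lists of 30000, 3 pracinostat lists and 0 DMSO lists had a summit in this region. Since it was picked after its values had been seen, the separation is a description only. Inside Itpkb, 56.7 kb from the start (chr1:180386215-180387886), the pracinostat libraries had 99.9, 99.4, 99.0 and 99.6 and the DMSO libraries 99.6, 77.7 and 96.9, with DMSO replicate 2 far below the other 6 libraries.

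Other regions had lower ranks in pracinostat libraries. At a region 5.31 kb into Inpp5d (chr1:87625101-87626149) the percentiles were 45.9, 59.2, 76.7 and 52.8 in pracinostat libraries and 96.3, 60.8 and 95.2 in DMSO libraries, an overlap by 1 library on each side (difference -1.01 ± 0.470, adjusted p = 0.895, limma). At a region 19.4 kb into Prkcd (chr14:30606750-30607250) they were 9.02, 45.4, 10.8 and 7.67 in pracinostat libraries and 60.7, 25.1 and 84.5 in DMSO libraries, again with an overlap (difference -1.24 ± 0.565, adjusted p = 0.895, limma). There 9.02, 10.8, 7.67 and 25.1 stand for no summit in the full list, and 1 of the 7 lists of 30000 had a summit. The 3 regions that were lower in every pracinostat library lay inside Inpp5d, Plcg2 and Pik3r5, and each had a summit in only 1 of the 7 lists of 30000. Their mean percentiles were 21.9 ± 9.44 in pracinostat libraries and 59.3 ± 15.9 in DMSO libraries at Inpp5d (chr1:87641704-87642204), 15.1 ± 7.26 in pracinostat libraries and 40.4 ± 24.4 in DMSO libraries at Plcg2 (chr8:117547105-117547605), and 15.9 ± 9.66 in pracinostat libraries and 42.1 ± 17.1 in DMSO libraries at Pik3r5 (chr11:68491021-68491521).

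**Figure D4:**
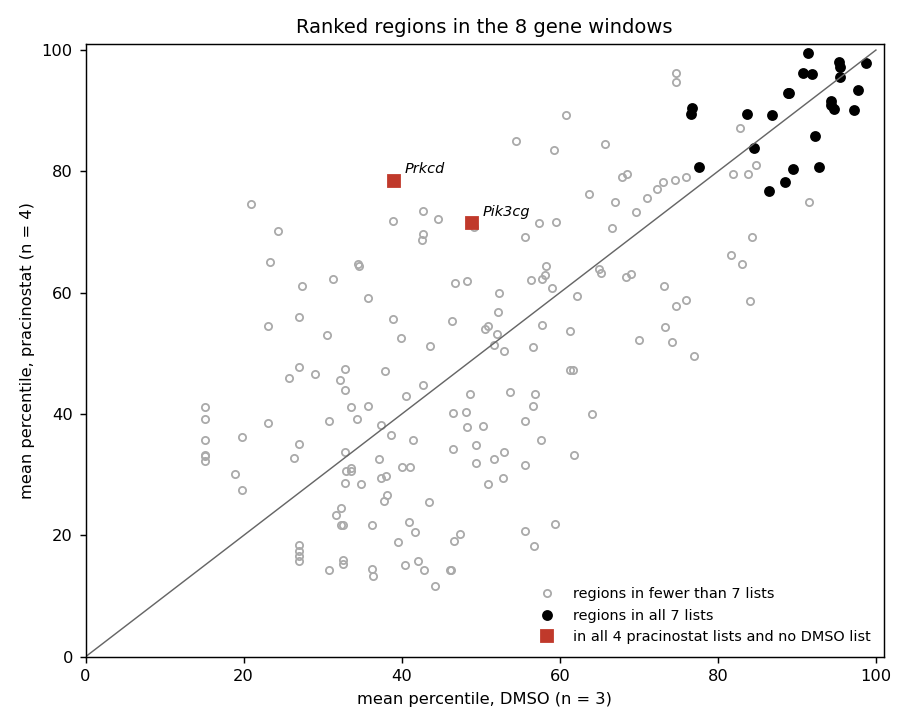
Mean percentile of each of the 198 ranked regions in pracinostat libraries (y axis, n = 4) against DMSO libraries (x axis, n = 3), where the line marks equal values. The 25 regions found in all 7 lists (black) lie in the upper right corner near the line, and the red squares are the 2 regions in all 4 pracinostat lists and no DMSO list, at Prkcd and Pik3cg.

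The wider pathway was covered by 110 further genes in 8 lists, such as other PI3K subunits, lipid phosphatases, phospholipases C, inositol phosphate enzymes, PKC and diacylglycerol kinases. Of these, 98 were ranked by their gene ends, with 53 positive and 45 negative differences and a median of 0.0348. limma called 0 of the 98, with a smallest adjusted p of 0.739, and 2 higher and 5 lower ones of the 98 had an unadjusted p under 0.05, beside 2.74% and 3.42% of all ranked genes. The groups did not overlap for 1 higher gene and 4 lower genes of the 98, beside 2.88% and 3.79% of all ranked genes. By summit count 81 were tested, 46 with positive and 35 with negative differences, and limma called 0, with a smallest adjusted p of 0.872. The 10 ranked PI3K subunits and adaptors had 5 positive and 5 negative differences, the 21 lipid phosphatases 11 and 10, the 10 lipid kinases 6 and 4, and the 11 phospholipases C 7 and 4. The 14 inositol phosphate enzymes and receptors had 8 positive and 6 negative differences, the 8 protein kinases C and D 4 and 4, the 12 diacylglycerol kinases and effectors 7 and 5, and the 12 lipid effectors and PKC substrates 5 and 7.

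None of the named genes of the wider pathway passed the test either. The most positive rank difference was that of Dgkd, a diacylglycerol kinase, with mean percentiles of 84.2 ± 7.53 in pracinostat libraries and 53.3 ± 5.21 in DMSO libraries and no overlap (0.960 ± 0.380, adjusted p = 0.777, limma). Adap2, which binds PI3K lipids, had 98.3 ± 1.68 in pracinostat libraries and 88.1 ± 13.9 in DMSO libraries, and Dgkq, another diacylglycerol kinase, had 64.2 ± 12.3 in pracinostat libraries and 37.0 ± 18.3 in DMSO libraries. The most negative was Plch2, a phospholipase C, with 7.55 ± 4.01 in pracinostat libraries and 32.8 ± 14.2 in DMSO libraries (-1.01 ± 0.362, adjusted p = 0.739, limma). Pdpk1, the kinase that activates Akt and PKC, had 38.5 ± 11.2 in pracinostat libraries and 72.8 ± 7.83 in DMSO libraries. Pik3r1, which encodes the p85α subunit that holds p110δ, had 54.3 ± 11.2 in pracinostat libraries and 81.5 ± 13.1 in DMSO libraries. For Plch2, Pdpk1 and Pik3r1 every pracinostat library lay below every DMSO library. The most summits were found over Pik3ap1, a PI3K adaptor of immune receptors, with 24.75 ± 7.59 in pracinostat libraries and 25.3 ± 8.96 in DMSO libraries. Pip5k1c, which makes phosphatidylinositol bisphosphate, had 21.75 ± 5.91 in pracinostat libraries and 20.7 ± 4.93 in DMSO libraries, and Dgkz, a diacylglycerol kinase, had 19.75 ± 4.79 in pracinostat libraries and 18.0 ± 6.08 in DMSO libraries.

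**Figure D5:**
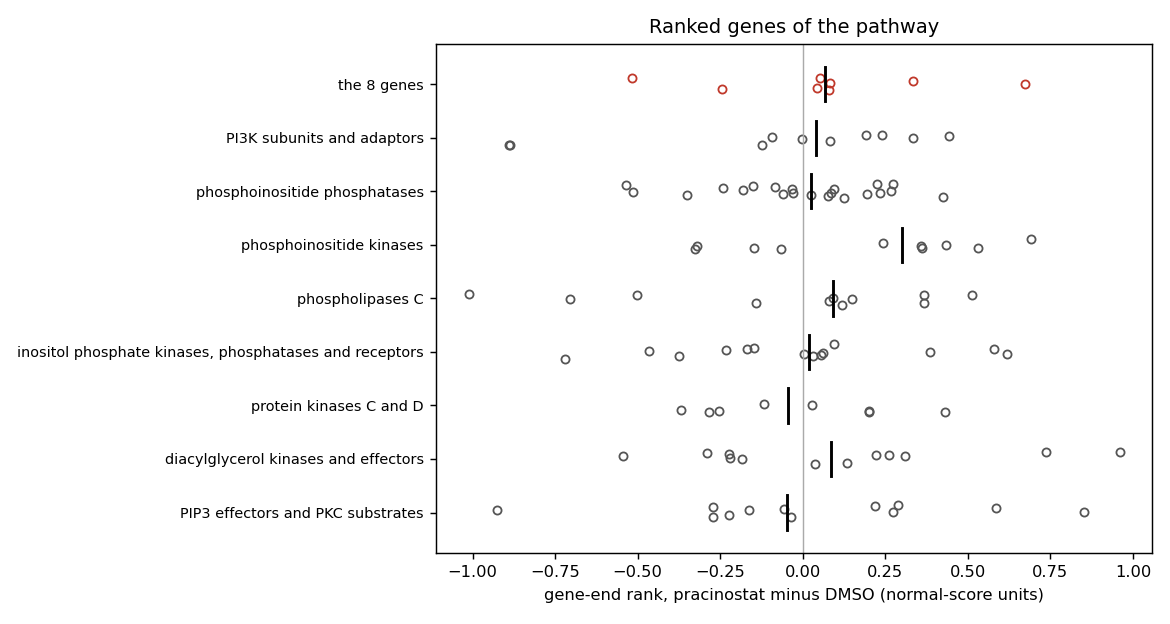
Difference in gene-end rank, pracinostat minus DMSO in normal-score units (x axis), for the 8 genes (red) and the ranked genes of 8 further pathway lists (grey), with a black bar at each median. The medians of all rows lie between -0.0463 and 0.301, and the points of each row fall on both sides of 0.

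Among 2164 other genes with a mean of at least 5 summits, those whose counts over the 7 libraries were most like the mean of the 8 genes were Arsg (Pearson r = 0.975), Tmem170b (r = 0.966) and Tcf4 (r = 0.961). Arsg had 6, 4, 10 and 8 summits in pracinostat libraries and 5, 4 and 6 in DMSO libraries. The 7 points are the same libraries for every gene and share their depth and their ties, so this is a description of likeness only.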

How the data were processed

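Each of the 14 libraries had 1 deposited list of peak summits, single bases with a −log10 significance value that the authors' peak caller gave. The sources used here do not say whether it came from a p-value or a q-value, nor how many reads each library had, so summit numbers are the only sign of depth. Bowtie2, MACS2 2.2.9.1, DESeq2 and HOMER with the build mm10 were used per the submitters' processing notes, but the sources used here give no settings. Each list held 1 library, so replicates had not been pooled.

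Scores grow with depth, so they were only ranked within a library. Counts used the 30000 highest summits of each H3K27ac list, with ties drawn at random under a fixed seed, and log2(count + 1), for the 9678 genes with a mean of at least 1 summit. Ranks used full lists, for 13494 genes and 48326 regions with a summit in at least 3 of 7 libraries, as normal scores of the percentile, with unmarked genes tied lowest. Gene spans and promoters came from RefSeq tables of GRCm38.p6. Treatments were compared with limma 3.58.1, using a robust variance with a trend, under R 4.3.3 and statmod 1.5.0, Benjamini-Hochberg adjusted over everything tested. The samples are biological replicates per the labels, which name no animal behind each, so p-values measure only the spread among these samples. The limma step was tested on simulated data.

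The 8 genes, the pathway lists and the tests were chosen with earlier results of these data known. Named were all 8 genes, their neighbours, the 3 pathway genes with the most positive and the 3 with the most negative rank difference, the 3 with the most summits, and the 3 genes most like the 8 by count. Alternatives were other windows, list lengths, filters and seeds, a list-length covariate, a replicate block and leaving out each library.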

Additional observations from a re-analysis of the deposited data

Results flagged for a closer look

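Of 36 groups of 4 pracinostat values checked, 4 had a value far from the other 3, where chance flags about 1 in 20 groups. At Pdpk1, the gene-end percentile of pracinostat replicate 3 was 21.9, against 45.02, 41.6 and 45.4 in the other pracinostat libraries. At the region between Itpkb and Stum (chr1:180431769-180432383), pracinostat replicate 4 had a percentile of 7.67, which stands for no summit, while the other pracinostat libraries had 93.6, 88.1 and 91.5 and the DMSO libraries 37.8, 25.1 and 10.2. At a region inside Prkcd that starts at chr14:30606750, pracinostat replicate 2 had 45.4, the other pracinostat libraries had 9.02, 10.8 and 7.67, and the DMSO libraries had 60.7, 25.1 and 84.5. Here 9.02, 10.8, 7.67 and 25.1 stand for no summit. At the next region of Prkcd, which starts at chr14:30607703, pracinostat replicate 1 had 95.3, the other pracinostat libraries had 87.5, 86.6 and 87.5, and the DMSO libraries had 91.9, 25.1 and 65.4. Groups of 3 DMSO values were not checked.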

How the results depend on the processing

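The rank and count differences of the 8 genes were recomputed 240 times in all, and limma called none (lowest adjusted p 0.668). Of these 16 differences 3 kept their sign throughout: the Pik3cd count, the Itpkb count, at 0.29 to 0.47 on the log2 scale (lowest adjusted p 0.717), and the Pik3cd rank, at 0.476 to 0.906. The Plcg2 count difference was 0 without pracinostat replicate 1. Over all genes, rank calls were 0 as reported, 2 with windows of 500 bp, 1 with lists of 30000, 2 with genes marked in any library, and 0 to 4 leaving out 1 library (4 without DMSO replicate 3, 1 without pracinostat replicate 2). Count calls were 0 as reported, 1 without the filter on low counts, and 0 to 1 leaving out 1 library (1 without DMSO replicate 1). Region calls were 2 as reported, 0 with list length as a covariate, 1 with the replicate block, and 0 to 2 leaving out 1 library (0 without pracinostat replicate 1 or 3 or DMSO replicate 2). The replicate numbers are shared between the treatments, and the main fits did not pair libraries by them. In their deviations by rank, same-numbered libraries correlated at -0.0544, 0.000524 and -0.0235, and differently numbered ones at -0.0489 to 0.0961. With so few libraries this check cannot settle whether the numbers stand for a shared origin. The block gave 0 rank and 0 count calls.

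Signs turned as follows, and the cause was not tested. Rank differences with the whole gene as the window became -0.406 for Inpp5d, -0.230 for Plcg2, 0.781 for Prkcb and 0.000631 for Pdpk1. With the list-length covariate they were -0.433 for Inpp5d, -0.0590 for Pik3cg and -0.0342 for Prkcd. Plcg2 had -0.0286 with windows of 2.5 kb, -0.0146 with lists of 30000 and -0.177 with the block, and Pik3r5 had 0.0159 with windows of 500 bp. Leaving out 1 library gave -0.151 to 0.285 for Itpkb, -0.475 to 0.820 for Inpp5d, -0.183 to 0.307 for Plcg2, -0.260 to 0.410 for Pik3cg and -0.138 to 0.451 for Prkcd. Log2 count differences became 0.0496 for Inpp5d with lists of 50000 and 0.0761 with the block, -0.23 for Pik3cg without the margin, and 0.70 for Prkcb with lists of 15000. Pik3ap1 had 0.0784 with lists of 15000 and 0.17 with lists of 50000. Pip5k1c had -0.11 with lists of 15000, -0.13 with a margin of 50 kb and -0.10 with the covariate, and Dgkz had -0.35 with lists of 15000 and -0.0334 with another seed. Leaving out 1 library gave count differences of -0.218 to 0.165 for Inpp5d, -0.284 to 0.0320 for Pik3r5, -0.00151 to 0.30 for Prkcd, -0.674 to 0.0233 for Prkcb, -0.35 to 0.22 for Pik3ap1, -0.14 to 0.19 for Pip5k1c and -0.00551 to 0.39 for Dgkz. With regions extended by 500 bp, the region of Inpp5d at chr1:87649456 had -0.475 and that of Prkcd at chr14:30606750 had 0.402.

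Depth is known only as summit numbers, and ties were drawn at random for 11425 of the 30000 summits used from DMSO replicate 2. Summits show where the mark peaks, not how much of it there is.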
